A study of Sus scrofa with 10 samples.

Results

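The genes described here encode the collagens, laminins, fibrillins and fibulins of the extracellular matrix, the enzymes that modify and cross-link collagen, the integrins that bind matrix, and the ADAMTS and MMP proteases that cut it. They were chosen by symbol alone, as every gene with a single symbol in the platform annotation that begins with COL, LAMA, LAMB, LAMC, FBN or MMP and then a digit, or with FBLN, ITGA, ITGB, LOX, PLOD, P4HA or ADAMTS, together with FN1, DCN, LUM, BGN and SPARC. The rule found 55 genes, read by 97 probe sets, among 6765 genes with 1 symbol on the array. The brightest probe set over all 10 arrays stands for its gene, and the other 42 are described beside it. One gene, ITGB1BP2, an integrin-binding protein of muscle, entered by its symbol and is not an integrin.

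Fibroblasts from pig fetuses at day 24, a Danish Landrace/Yorkshire x Duroc cross, were grown from fetal tissue without the head and sorted with magnetic beads for SSEA-1. The antibody binds the Lewis X carbohydrate on the cell surface. The RNA of 5 SSEA1+ and 5 SSEA1- samples was read on porcine Affymetrix arrays, with replicates numbered 1 to 5 on each side of the sort. The fractions share the breed, the age, the culture medium and the sort, and differ by the label of the sorted fraction. The series title calls the cells a fibroblast line, and the series text speaks of biological replicates that gave both fractions. Nothing says that the 5 replicates came from different fetuses. The p-values therefore set a difference against the spread between these sorted samples, and not between fetuses known to differ.

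Collagen chains are hydroxylated in the endoplasmic reticulum by prolyl and lysyl hydroxylases, wind into triple helices, and are joined outside the cell by lysyl oxidases. Fibrillar collagens of types I, III and V make up the fibrils of connective tissue, and small proteoglycans such as decorin, lumican and biglycan sit on those fibrils. Fibroblasts attach to this matrix and to fibronectin through integrin alpha-beta pairs, and remodel it with metalloproteases.

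Values are log2 signals, so a difference of 1 is a doubling. Between 69.42% and 72.66% of the probe sets on an array lay above the background of 0.352. Of the pooled values of 23 controls for sequences foreign to pig RNA on the 10 arrays, 95% stayed under that level. Of 7 measured fibroblast and mesenchymal markers, all were above background on all arrays, with a summed signal of 3320 to 3490 in the SSEA1+ and 3240 to 3330 in the SSEA1- fraction. VIM, an intermediate filament protein of mesenchymal cells, read 11.20 to 11.32. The endothelial adhesion gene CDH5, the leukocyte gene PTPRC and the muscle gene CKM stayed below background on all 10 arrays, and EPCAM, of epithelia, exceeded it on 5. Other markers of these types were read, however. Above background on all arrays were 5 of 9 endothelial, 5 of 7 epithelial, 2 of 5 muscle, 4 of 5 neural and 1 of 8 blood markers. The keratin KRT8 read 4.73 to 6.54 and desmin (DES), of muscle, 6.09 to 7.65, and neither passed the test between fractions. ERG, a transcription factor of endothelium, fell by 0.42 (adjusted p = 0.0394 in limma), and it was the only one of 41 measured markers that passed. The ERG call ended in 7 of the 10 leave-outs of a single array. With the replicate number as a block, 1 of 7 fibroblast, 1 of 7 epithelial and 1 of 5 muscle markers also rose, where 5.65% of all genes did. The summed endothelial signal, ERG included, was 18.0 to 20.3 against 20.5 to 23.4, while the median difference of the 9 endothelial markers was 0.03. The part of this signal in the matrix results was not tested. In bulk RNA, fewer cells of a type and less RNA per cell cannot be told apart.

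One technical measure moved with the fractions. The poly-A spike-in controls, relative to the hybridisation controls, were 0.82 higher on the log2 scale in the SSEA1+ fraction, at -3.20 ± 0.32 against -4.02 ± 0.25 (SD, n = 5 each; exact two-sided permutation p = 0.00794, the smallest that 5 against 5 arrays can give). All 5 SSEA1+ arrays, at -3.45 to -2.66, lay above all 5 SSEA1- arrays, at -4.32 to -3.81, so a fit with this level as a covariate extrapolates. The log2 ratio of 3′ over 5′ signal of the actin controls, a sign of RNA quality, was 1.17 ± 0.07 against 1.24 ± 0.10 (SD, n = 5 each; exact permutation p = 0.302). The same log2 ratio of the GAPDH controls was 0.88 ± 0.08 against 0.95 ± 0.06 (SD, n = 5 each; exact permutation p = 0.151).

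In the SSEA1+ fraction 3 collagen genes rose and 1 protease gene fell, while most of the matrix and adhesion genes did not pass. The rises were 2.28-fold for COL1A2, which encodes a type I collagen chain, 1.60-fold for COL5A2, of type V collagen, and 1.36-fold for COL8A1, of the short-chain type VIII collagen. ADAMTS6, a secreted metalloprotease, fell by 0.71 on the log2 scale and was 1.63-fold lower. In limma at an adjusted p under 0.05, 3 of the 55 genes were called higher and 1 lower, or 5.45% and 1.82%. Over all 6765 genes 3.21% were called higher and 4.18% lower.

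The median difference over the 55 genes was -0.02 on the log2 scale, beside -0.01 over all genes, and the median size of a difference was 0.10 beside 0.11. A difference of more than 0.5 in either direction was read for 4 of the 55, or 7.27%, and for 3.21% of all genes. The 5 SSEA1+ values lay wholly above the 5 SSEA1- values for 4 of the 55 genes, or 7.27%, beside 3.96% of all genes. They lay wholly below for 1, or 1.82%, beside 4.55% of all genes. Of the 4, MMP13 was below background on all 10 arrays. The replicate numbers were treated as pairs of fractions, and a fit that blocks on them called 5 genes higher and 2 lower, or 9.09% and 3.64%, beside 5.65% and 8.62% of all genes. The additional calls were BGN and MMP14, higher, and MMP1, lower. With the replicate as a random block BGN passed and MMP14 and MMP1 did not (adjusted p = 0.0838 and 0.315 in limma), while MMP13, dim throughout, did (0.0265). At an unadjusted p under 0.05 there were 10 of the 55 genes, or 18.2%, beside 23.8% of all genes.

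With the poly-A level as a covariate, limma called 0 of the 55 genes, where 0.0887% of all genes passed, and at an unadjusted p under 0.05 there were 4 higher and 3 lower, or 7.27% and 5.45%, beside 5.78% and 8.81% of all genes. Adding the replicate block to that covariate also gave 0 calls, against 0.0148% of all genes, with 5 higher and 2 lower at the unadjusted threshold, or 9.09% and 3.64%, beside 4.70% and 6.68% of all genes. The part of the poly-A difference in these results was not tested. The plot of differences by gene sets each gene's estimate beside its interval.

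**Figure D1:**
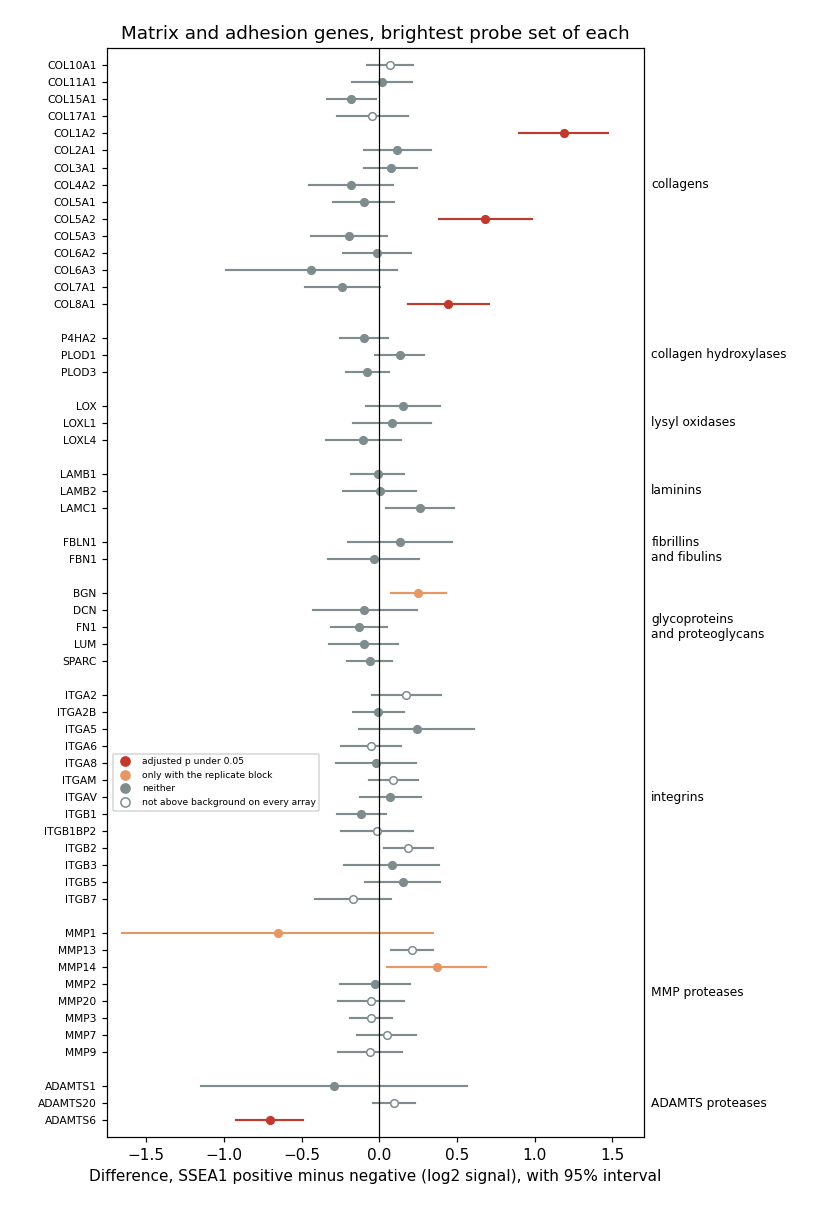
Difference between fractions (horizontal axis, log2 signal, SSEA1 positive minus negative) for the 55 genes by family, with points for the estimate and lines for the 95% interval from limma without the block. COL1A2, COL5A2 and COL8A1 stand to the right and ADAMTS6 to the left in red, BGN, MMP14 and MMP1 are in orange as passing only with the replicate block, and open points are genes that were not above background on every array.

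Of 15 collagen genes, 3 rose, none fell and 12 did not pass, with a median difference of -0.02. Of all genes 3.21% were called higher and 4.18% lower. An unadjusted p under 0.05 was read for 4 of the 15, beside 23.8% of all genes. Blocking on the replicate again gave 3 and 0, beside 5.65% and 8.62% of all genes. Among the fibrillar chains, COL1A2 read 6.19, 5.96, 6.30, 6.21 and 5.98 in SSEA1+ replicates 1 to 5 and 4.71, 5.38, 5.01, 5.04 and 4.57 in the SSEA1- replicates. The fractions did not overlap, and the lowest SSEA1+ array lay above the highest SSEA1- array. The log2 difference was 1.19 ± 0.13 (SE, n = 5 each; 95% interval 0.90 to 1.47; limma adjusted p = 0.000434). It was higher in 5 of 5 pairs, by 0.58 in replicate 2 to 1.48 in replicate 1. No single array or pair decided the call, and the difference ran from 1.09 to 1.34 in those leave-outs. The poly-A covariate left COL1A2 at 1.01 ± 0.25 (SE; adjusted p = 0.149). Its second probe set, above background on 7 of 10 arrays, read 0.08 ± 0.10 (SE; adjusted p = 0.736), and the mean of both probe sets differed by 0.64.

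COL5A2 read 3.43, 3.61, 3.55, 3.88 and 3.69 in the SSEA1+ fraction and 2.47, 3.26, 3.23, 2.84 and 2.95 in the SSEA1- fraction. These arrays did not overlap either, and SSEA1- replicate 1 was the lowest of all. The log2 difference was 0.68 ± 0.14 (SE, n = 5 each; limma adjusted p = 0.0128; 0.00416 with the replicate block), with pair differences of 0.32 to 1.04. The call ended without both arrays of replicate 5, at an adjusted p of 0.0802. The poly-A covariate gave 1.02 ± 0.24 (SE; adjusted p = 0.134), and together with the block 1.48 ± 0.25 (SE; adjusted p = 0.151). The second COL5A2 probe set, at 0.48 to 1.15, read -0.04, and the mean of both gave 0.32.

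The partner chain COL5A1, which joins COL5A2 in the common type V trimer, read 8.88 to 9.30 against 9.01 to 9.32, and the fractions overlapped almost wholly. Its difference was -0.10 (95% interval -0.30 to 0.09; adjusted p = 0.602 in limma), while 4 further probe sets above background on all arrays read between 0.04 and 0.22 without passing. Another chain of the type, COL5A3, read 0.67 to 1.38 against 1.16 to 1.44, a difference of -0.20 (adjusted p = 0.376). Among the 3 measured chains of type V collagen there was thus 1 rise and no fall.

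The other measured fibrillar chains were dim and did not pass. For COL1A1, the other type I chain, the rule found no probe set. COL3A1, the chain of type III collagen, read 0.51 to 0.94 over all 10 arrays on its single probe set, with a difference of 0.07. That signal is close to the background of 0.352, so a lack of difference says little about the gene. COL2A1, a cartilage collagen, read 1.18 to 1.77 with a difference of 0.12 on both of its probe sets, and COL11A1, of cartilage too, read 0.54 to 0.92 with a difference of 0.02. Each had overlapping fractions.

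COL8A1, known from vessel walls and subendothelial matrix, read 6.85, 7.12, 6.76, 6.94 and 7.13 in the SSEA1+ fraction against 6.52, 6.84, 6.55, 6.56 and 6.12 in the SSEA1- fraction. SSEA1- replicate 2 lay above SSEA1+ replicate 3, so the fractions overlapped, and all 5 pairs were higher in SSEA1+, by 0.20 to 1.01. The log2 difference was 0.44 ± 0.12 (SE, n = 5 each; limma adjusted p = 0.0459; 0.0263 with the replicate block). That call ended in 8 of the 10 leave-outs of a single array, all but those of SSEA1+ replicate 3 and SSEA1- replicate 2, with an adjusted p of up to 0.111. It also ended without both arrays of replicate 1, 3, 4 or 5, where the difference was as low as 0.30. A second probe set of COL8A1, at 1.61 to 2.85, read 0.43 ± 0.15 (SE; adjusted p = 0.124; 0.0374 with the block), and the other ones 0.19 and, below background, 0.10. The poly-A covariate gave COL8A1 0.59 ± 0.23 (SE; adjusted p = 0.308).

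COL15A1, a collagen that bridges basement membrane and fibrils, read 8.98 to 9.16 against 9.08 to 9.34, a difference of -0.18 (95% interval -0.34 to -0.02; adjusted p = 0.183), and was lower in 4 of 5 pairs. COL4A2, a basement membrane chain, differed by -0.18 (adjusted p = 0.474). COL7A1, the anchoring fibril collagen, read 2.00 to 2.63 against 2.43 to 2.70 and differed by -0.24 (adjusted p = 0.263).

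COL6A3, a chain of the beaded filaments of type VI collagen, had the widest interval of the collagens. It read 4.17, 4.16, 4.80, 5.53 and 4.93 against 4.96, 4.75, 5.54, 4.86 and 5.67. Replicate 4 went the other way, with the SSEA1+ array higher, and the remaining 4 pairs were lower in SSEA1+. The difference was -0.44 ± 0.25 (SE, n = 5 each; limma adjusted p = 0.385; 0.175 with the block), and with the block and the poly-A covariate it turned to 0.80. Its partner COL6A2 read 2.54 to 2.98 over all arrays, with a difference of -0.02. COL17A1, a transmembrane collagen of epithelia, differed by -0.05, and COL10A1, of growth plate cartilage, lay below background on all arrays.

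The 3 collagen hydroxylase genes gave 0 calls in limma, blocked or not, and 0 at an unadjusted p under 0.05. PLOD1, a lysyl hydroxylase, read 6.25 to 6.48 against 6.13 to 6.40, a difference of 0.13 (95% interval -0.03 to 0.29; adjusted p = 0.35). Its second probe set, at 1.67 to 2.52, read 0.36 ± 0.10 (SE; adjusted p = 0.0555; 0.0224 with the block), with no overlap between fractions and -0.01 with the poly-A covariate. PLOD3, a lysyl hydroxylase that also adds sugars to collagen, differed by -0.08, and P4HA2, a subunit of prolyl hydroxylase, by -0.10, with -0.20 on its other probe set.

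The 3 lysyl oxidase genes likewise gave 0 calls in limma, blocked or not, and 0 at an unadjusted p under 0.05. LOX, the founding enzyme of the family, read 6.69 to 7.23 against 6.48 to 6.89, a difference of 0.15 (95% interval -0.08 to 0.39; adjusted p = 0.501). LOXL1, which acts on elastin, differed by 0.08 (-0.17 to 0.33) and LOXL4 by -0.10 (-0.34 to 0.14). The fractions overlapped for all of these.

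The laminins, cross-shaped trimers of basement membranes, were represented by 2 beta chains and 1 gamma chain. LAMC1, the gamma chain of most laminins, read 7.12, 7.22, 7.21, 7.07 and 7.12 against 6.91, 7.17, 7.04, 6.60 and 6.71. It was higher in 5 of 5 pairs, though SSEA1- replicate 2 lay within the SSEA1+ range. The difference was 0.26 ± 0.10 (SE, n = 5 each; limma adjusted p = 0.161; 0.0599 with the block), and it did not pass. Without SSEA1- replicate 2, LAMC1 read 0.33 and passed (adjusted p = 0.0463). The 3 further LAMC1 probe sets, all above background on all arrays, read 0.04, 0.11 and 0.02. LAMB1 read 7.89 to 8.23 against 7.98 to 8.15, a difference of -0.01 (95% interval -0.18 to 0.16), and LAMB2 differed by 0.002 (-0.23 to 0.23).

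FBN1, the fibrillin that forms the scaffold of elastic microfibrils, read 8.32 to 8.76 against 8.08 to 8.90, a difference of -0.04 (95% interval -0.33 to 0.26), and its other probe set read 0.02. FBLN1, a fibulin of basement membranes and elastic fibres, differed by 0.13 (-0.20 to 0.47). Both genes missed the threshold in limma, blocked or not, and neither reached an unadjusted p under 0.05.

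Of the 5 glycoproteins and proteoglycans 0 passed in limma, 1 had an unadjusted p under 0.05, and blocking on the replicate let the same gene pass. Over all genes 23.8% had such an unadjusted p, and 5.65% were called higher with the block. BGN, the small proteoglycan biglycan, read 7.84, 7.91, 8.16, 8.12 and 7.90 against 7.76, 7.73, 7.84, 7.78 and 7.56. The fractions did not overlap, although SSEA1+ replicate 1 and SSEA1- replicate 3 nearly met. The difference was 0.25 ± 0.08 (SE, n = 5 each; limma adjusted p = 0.0951; 0.0425 with the block), and 0.03 ± 0.14 under the poly-A covariate (SE). DCN, the related proteoglycan decorin, differed by -0.10 and was lower in 5 of 5 pairs, by 0.02 to 0.25 on the log2 scale, without passing (adjusted p = 0.813; 0.438 with the block). LUM, lumican, differed by -0.10 (95% interval -0.32 to 0.12).

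FN1, fibronectin, a ligand of several integrins, read 10.29 to 10.67 against 10.53 to 10.80. Its difference of -0.13 (95% interval -0.31 to 0.05; adjusted p = 0.445) was negative in 5 of 5 pairs. A second FN1 probe set, at 2.76 to 4.63, read 0.37 ± 0.31 (SE; adjusted p = 0.583), so the 2 brightest probe sets of the gene differed in sign without either passing. The poly-A covariate moved this second FN1 probe set to 1.81 ± 0.37 (SE; adjusted p = 0.091), and the covariate together with the block to 2.50 ± 0.24 (SE; adjusted p = 0.0252), which passed. SPARC, a collagen-binding glycoprotein, read 10.77 to 11.01 against 10.89 to 10.98 and differed by -0.06 (-0.20 to 0.08).

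**Figure D2:**
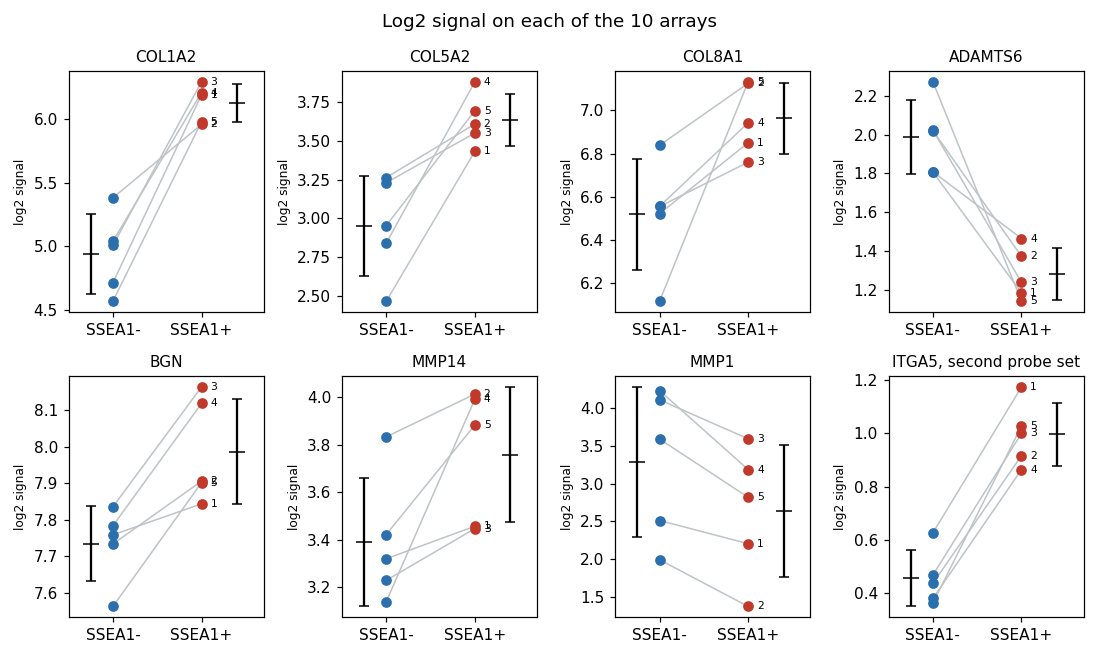
Log2 signal (vertical axis, scaled to each gene) on the SSEA1 negative (blue) and positive (red) array of each replicate, joined by grey lines and numbered 1 to 5, with bars for mean and SD of the 5 arrays. All 5 lines rise for COL1A2, COL5A2, COL8A1, BGN, MMP14 and the second probe set of ITGA5, and all 5 fall for ADAMTS6 and MMP1. For MMP1 the replicates differ more than the fractions do.

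The group of 13 genes with integrin symbols gave 0 calls in limma, blocked or not. An unadjusted p under 0.05 was read for 1, beside 23.8% of all genes. The median difference was 0.07. ITGB1, the beta chain shared by the collagen, laminin and fibronectin receptors, read 9.73 to 9.98 against 9.84 to 10.07, a difference of -0.12 (95% interval -0.27 to 0.04; adjusted p = 0.427). ITGA8, which pairs with ITGB1, read 6.69 to 7.21 against 6.58 to 7.15, with differences of -0.02, 0.04 and 0.17 on its 3 probe sets. ITGAV, the alpha chain of the vitronectin receptors, differed by 0.07 (-0.12 to 0.27), and its partners ITGB3 and ITGB5 differed by 0.08 (-0.23 to 0.39) and 0.15 (-0.09 to 0.39).

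ITGA5, the alpha chain of the fibronectin receptor, differed between its probe sets. On the brighter one it read 2.49, 3.03, 3.49, 2.77 and 2.52 against 2.53, 2.91, 2.67, 2.64 and 2.35, with overlapping fractions and a difference of 0.24 ± 0.17 (SE, n = 5 each; limma adjusted p = 0.496). The dimmer one, singled out after its values were seen, read 1.17, 0.92, 1.00, 0.86 and 1.03 against 0.63, 0.44, 0.47, 0.38 and 0.36. Its fractions did not overlap, it rose by 0.54 ± 0.08 (SE, n = 5 each; limma adjusted p = 0.00200), and its pair differences were 0.48 to 0.66. The SSEA1- values lay just above the background of 0.352. The poly-A covariate gave 0.42 ± 0.15 (SE; adjusted p = 0.259). The mean of both ITGA5 probe sets differed by 0.39 and passed (adjusted p = 0.0319).

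Of the integrins best known from blood cells and platelets, ITGAM and ITGB7 exceeded background on 2 arrays each and ITGB2 on 3, and ITGA2B read 0.65 to 0.99. ITGA6, of a laminin receptor, exceeded background on 0 arrays, ITGA2, of a collagen receptor, on 2, and ITGB1BP2 on 4. Their differences lay between -0.17 and 0.19. ITGB2, the beta chain of leukocyte integrins, was the one with an unadjusted p under 0.05, at a difference of 0.19 (adjusted p = 0.163). Its SSEA1- arrays, at 0.06 to 0.32, were all below background.

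The 8 MMP genes gave 0 calls in limma, with 2 at an unadjusted p under 0.05, whereas blocking on the replicate gave 1 rise and 1 fall. Over all genes 23.8% had such an unadjusted p, and 5.65% rose and 8.62% fell with the block. MMP1, an interstitial collagenase, read 2.20, 1.37, 3.60, 3.19 and 2.82 in the SSEA1+ fraction and 2.51, 1.99, 4.11, 4.24 and 3.59 in the SSEA1- fraction. Replicates 1 and 2 were low in both fractions and replicates 3 to 5 were high in both, so the fractions overlapped widely, yet 5 of 5 pairs were lower in SSEA1+, by 0.31 to 1.05 on the log2 scale. The difference was -0.65 ± 0.46 (SE, n = 5 each; limma adjusted p = 0.495), and with the block it was -0.65 ± 0.10 (SE; adjusted p = 0.00271). As a random block the replicate gave an SE of 0.37 and no call (adjusted p = 0.315). The poly-A covariate moved MMP1 to -1.77 ± 0.82, and the covariate together with the block to -1.03 ± 0.30 (SE), and neither passed.

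MMP14, a membrane-anchored collagenase, read 3.46, 4.01, 3.45, 3.99 and 3.88 against 3.32, 3.83, 3.23, 3.14 and 3.42. The pairs were higher in SSEA1+ in 5 of 5, by 0.14 to 0.85, and replicates 1 and 3 of SSEA1+ lay within the range of the other fraction. The difference was 0.37 ± 0.15 (SE, n = 5 each; limma adjusted p = 0.174; 0.0438 with the block and 0.0838 with the random block), and without SSEA1- replicate 2 it was 0.48 and passed. The poly-A covariate moved it to 0.99 ± 0.20 (SE; adjusted p = 0.083). MMP2, the gelatinase that MMP14 activates, read 4.20 to 4.71 against 4.30 to 4.69 and differed by -0.03 (95% interval -0.25 to 0.20).

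On its brighter probe set MMP13, another collagenase, lay below background on all 10 arrays, and its other one exceeded it on 1. MMP3 and MMP20 lay below background on all arrays. The brighter MMP13 signals of 0.20 to 0.33 and 0.00 to 0.13 did not overlap, with a difference of 0.21 (adjusted p = 0.0627; 0.0562 with the block and 0.0265 with the random block), but no fold is given below background. MMP7 and MMP9 exceeded background on 3 and 4 arrays and differed by 0.05 and -0.06.

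ADAMTS6 was the single ADAMTS gene that passed, and it fell. It read 1.18, 1.37, 1.24, 1.46 and 1.14 in the SSEA1+ fraction and 1.81, 2.02, 2.02, 1.81 and 2.27 in the SSEA1- fraction. Every SSEA1+ array lay below every SSEA1- array, and replicate 5 held both the lowest and the highest value. The log2 difference was -0.71 ± 0.10 (SE, n = 5 each; 95% interval -0.92 to -0.49; limma adjusted p = 0.00164; 0.00196 with the block). The call held without any single array or pair, at -0.80 to -0.60. The poly-A covariate gave -0.45 ± 0.17 (SE; adjusted p = 0.308), and the covariate together with the block -0.24 ± 0.29 (SE). Only 1 probe set reads this gene, and its signal is low.

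ADAMTS1, a protease of the proteoglycans aggrecan and versican, read 2.57, 2.59, 1.97, 4.22 and 2.93 against 3.58, 3.25, 2.53, 2.25 and 4.12. SSEA1+ replicate 4 was higher than its partner by 1.96 and the other 4 pairs were lower in SSEA1+, so the difference of -0.29 ± 0.40 was smaller than its error (SE, n = 5 each; limma adjusted p = 0.762). Both of its probe sets showed the high SSEA1+ replicate 4, at 4.22 and 4.21. ADAMTS20 lay below background on all arrays.

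Probe sets of the same gene could be compared for 15 genes that had at least a pair of probe sets above background on all arrays. Of their 23 further probe sets, 12 had the sign of the brightest one. All such probe sets of COL2A1, COL8A1, LAMC1, PLOD1 and ITGA5 read higher in SSEA1+, and all those of P4HA2, LAMB1, SPARC and ADAMTS1 read lower. For COL5A1, COL5A2, LOXL4, FBN1, FN1 and ITGA8 the further ones had the opposite sign to the brightest. The remaining 19 probe sets, not above background on every array, differed by -0.13 to 0.15, with 0 calls in limma, blocked or not, and 0 at an unadjusted p under 0.05. Of all 97 probe sets, 4 were called higher and 1 lower in limma, the additional one being that of ITGA5. With the replicate block 8 were called higher and 2 lower. Over all genes, each by its brightest probe set, 3.21% were called higher and 4.18% lower, and 5.65% and 8.62% with the block.

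**Figure D3:**
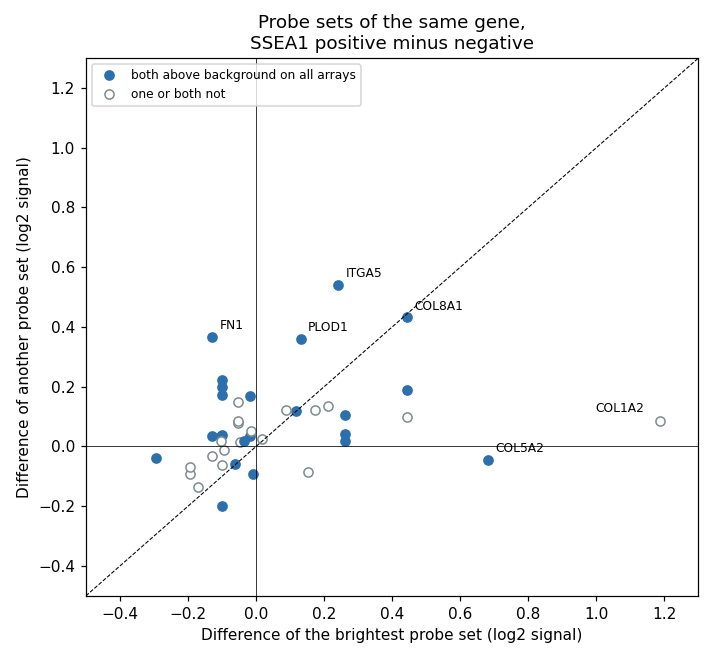
Difference between fractions (log2 signal, SSEA1 positive minus negative) of the brightest probe set of a gene (horizontal axis) and of each of its other probe sets (vertical axis), with equality as a dashed line and filled points where both were above background on all arrays. COL1A2 and COL5A2 lie far below the line, at 0.08 and -0.04 on the second probe set, COL8A1 lies near it at 0.43, and ITGA5 lies above it at 0.54.

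Further genes of matrix assembly and adhesion were taken from 4 lists, of which 67 of 126 genes were measured. In these, 7 genes rose and 1 fell in limma at an adjusted p under 0.05, where 3.21% and 4.18% of all genes did so. Blocking on the replicate gave 10 rises and 4 falls, beside 5.65% and 8.62% of all genes. Of 11 genes for collagen folding and export, 2 rose: CRTAP, a partner of prolyl 3-hydroxylase, by 0.23 ± 0.06 (SE, adjusted p = 0.0415), and TRAM2, which takes part in collagen synthesis at the endoplasmic reticulum, by 0.35 ± 0.10 (SE, adjusted p = 0.0494). The fractions did not overlap for either gene, but the call of CRTAP ended in 9 and that of TRAM2 in 8 of the 10 leave-outs of a single array. The TRAM2 call also ended with the controls left out of the fit (limma adjusted p = 0.0504) or all probe sets averaged by gene (0.0509). SEC24D, a coat protein for collagen export, differed by 0.31 (adjusted p = 0.104), and the median of the list was -0.04.

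Of 23 other matrix proteins none rose and CCDC80 fell, by 0.96, with a median of -0.08, where 4.18% of all genes fell. In the blocked fit POSTN (-0.59) and ASPN (-0.38) fell too, where 8.62% of all genes fell. ASPN, picked out after seeing its value, did not pass with the random block (limma adjusted p = 0.168). CCN1, a matricellular protein, differed by -0.22 (adjusted p = 0.145). Of 14 protease inhibitors and activators 4 rose, namely TIMP1, TIMP2, TIMP3 and BSG, where 3.21% of all genes rose. Blocking on the replicate gave 4 rises and 1 fall, beside 5.65% and 8.62% of all genes. In the blocked fit SERPINF1, a secreted serpin picked out after seeing its value, fell by 0.40 (adjusted p = 0.00541, against 0.0792 without the block) and was lower in 5 of 5 pairs. BSG, a membrane protein that induces metalloproteases and was picked out after seeing its value, rose by 0.31 ± 0.08 (SE, adjusted p = 0.0349), and its call ended in 7 of the 10 single-array leave-outs. The inhibitors rose by 0.33, 0.54 and 0.84, while the median of the list was -0.04, and the TIMP1 call ended without both arrays of replicate 1, 3 or 5.

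Of 19 genes of the integrin adhesion machinery, 1 rose and none fell, beside 3.21% and 4.18% of all genes. Blocking on the replicate gave 4 rises, beside 5.65% of all genes. PARVA, an adaptor that links integrins to actin, read 6.97 ± 0.17 against 6.54 ± 0.26 (SD, n = 5 each) and rose by 0.43 ± 0.12 (SE, limma adjusted p = 0.0499; 0.00509 with the block). Its call ended in 8 of the 10 single-array leave-outs. The PARVA call also ended with the controls left out of the fit (limma adjusted p = 0.0507) or all probe sets averaged by gene (0.0529). TLN1, talin, which activates integrins, differed by 0.35 with no overlap (adjusted p = 0.0657; 0.0358 with the block), and FLNA, an actin cross-linker, by 0.34 (0.118; 0.0334 with the block). The median of the list was 0.11, beside -0.01 over all genes. Under the poly-A covariate limma called 0 of the 67 genes, where 0.0887% of all genes passed. An unadjusted p under 0.05 was read for 10 of the 67 in either direction, beside 5.78% of all genes higher and 8.81% lower.

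**Figure D4:**
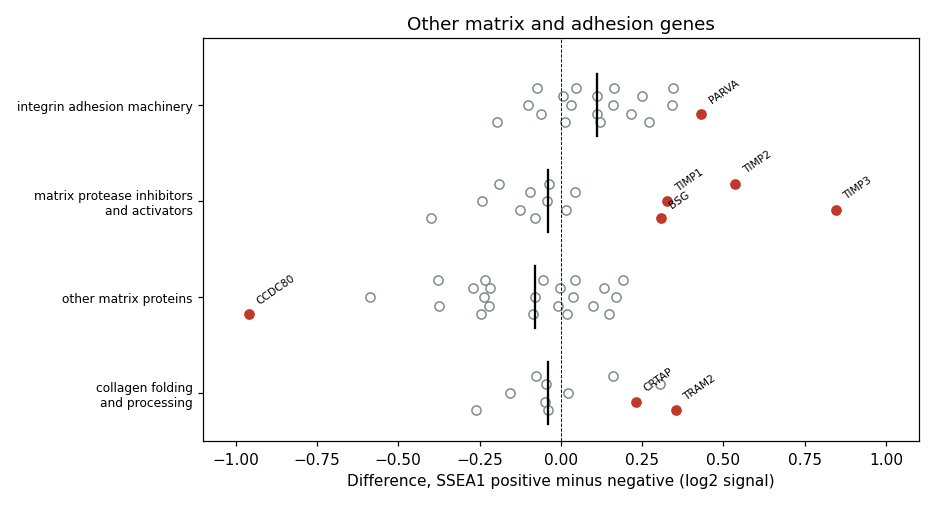
Difference between fractions (horizontal axis, log2 signal, SSEA1 positive minus negative) for 67 further matrix and adhesion genes in 4 lists, with filled red points for an adjusted p under 0.05, open points for the others and a vertical bar at each list's median. The called genes are CRTAP, TRAM2, TIMP1, TIMP2, TIMP3, BSG and PARVA on the right and CCDC80 at -0.96 on the left.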

How the data were processed

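The authors deposited log2 values, made with RMA per the submitters' processing notes; neither version nor settings are stated there, and the lowest values are below 0. Arrays have no read depth, so the number of arrays limits precision. Symbols came from the platform annotation, in which 10099 of 24123 probe sets have 1 symbol and 198 have several, the rest being unnamed here. All 24123 probe sets, 188 controls included, were fitted with lmFit and eBayes (limma 3.58.1 in R 4.3.3), with Benjamini-Hochberg adjustment over all of them and a threshold of 0.05. The fit was tested on simulated data.

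The members and the gene lists were chosen with earlier results of these data known. Named genes were those past the threshold with or without the replicate block, the 2 brightest of each family and the 1 with the smallest p among the others, and up to 3 per further list; others are accounted for beside them.

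Arrays with the same replicate number deviated together from their fraction's mean, with correlations of 0.122 to 0.580 over the 5 numbers, and the series text speaks of biological replicates that gave both fractions, so the numbers were treated as pairs. Both arrays of replicate 4 (up to 0.314) and SSEA1- replicate 5 (0.314) correlated better with another number, and the labels do not state the pairing outright. The alternatives were other scalings, filters, variance models and thresholds, the replicate block, the poly-A level as a covariate, averaging all probe sets of a gene, and leaving out arrays or pairs. No genome coordinates or sequences were used.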

Additional observations from a re-analysis of the deposited data

Results flagged for a closer look

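In 10 of 150 groups of 5 arrays, 1 array stood apart from the other 4 by Dixon's test at the 95% level, and chance gives about 1 in 20 groups. In the SSEA1- fraction, COL15A1 was lowest on replicate 4, at 9.08 with the others at 9.27 to 9.34, and COL7A1 was lowest on the same array, at 2.43 with the others at 2.63 to 2.70. P4HA2 was lowest on SSEA1- replicate 5, at 6.10 with the others at 6.25 to 6.31, and COL3A1 on SSEA1- replicate 1, at 0.51 with the others at 0.70 to 0.74. In the SSEA1+ fraction, PLOD3 was lowest on replicate 4, at 5.06 with the others at 5.19 to 5.24, and ITGB3 was highest on replicate 3, at 5.54 with the others at 4.89 to 5.01. The second probe set of PLOD1 was highest on the same array, at 2.52 with the others at 1.94 to 2.08, and passed between the fractions in 7 of 28 alternatives, the replicate block among them. The remaining 3 were genes below background on all arrays: ITGA6 at 0.33 on SSEA1- replicate 3, MMP20 at 0.27 on SSEA1- replicate 2 and MMP3 at 0.34 on SSEA1- replicate 4. At the settings of the results above, without the block, none of these probe sets passed in limma.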

How the results depend on the processing

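All 3 matrix genes called higher were called in 14 of 29 alternatives, and ADAMTS6 in 27. In the further lists all 7 called higher were called in 10 and CCDC80 in 27. The replicate block gave 5 higher and 2 lower, with 4 lower in the further lists, and as a random block 5 higher, MMP13 in place of MMP14, with 3 lower in the further lists. The poly-A covariate, alone or with the replicate block, gave 0 higher and 0 lower in both sets, and as this level separates the fractions wholly, the 2 cannot be told apart. A threshold of 0.01 gave 1 higher, and 2 in the further lists, and one of 0.1 gave 5 higher, with 3 lower in the further lists. Array weights gave 2 lower in the further lists. Leaving out the controls, or averaging all probe sets of a gene, gave 5 higher there, without PARVA and TRAM2. Leaving out 1 array or 1 pair gave 1 to 5 higher, with 5 without SSEA1- replicate 2 and 1 without both arrays of replicate 5, and 1 lower each time. In the further lists these gave 2 to 10 higher and 1 to 2 lower. The median difference lay between -0.04 and 0.12. Of 2158 values of single genes and probe sets under the alternatives, 2003 kept their side of the threshold, 116 lost a call and 38 gained one. One lost its call and turned its sign, ERG at 0.11 with the replicate block and poly-A covariate (limma adjusted p = 0.911), and the cause was not tested. Signs turned in 113 values, this one included. The others were of genes and probe sets not called at the settings of the results above.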
